A study of Homo sapiens with 6 samples.

Results

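The interleukin-6 cytokine axis was described through 10 genes: the ligands IL11, IL6 and LIF, the receptor chains IL6R, IL11RA, LIFR, OSMR and IL6ST, the transcription factor STAT3 and its feedback inhibitor SOCS3. The genes were chosen by symbol alone, and all 10 were measured, each by 1 transcript cluster (a group of probes for one gene) among the 33297 of the array. RNA came from 3 cultured human breast cancer lines: MDA-MB-231, a mesenchymal line without hormone receptors, and its derivatives 231BoM-1833 and 231BrM-2a, which were selected in mice for growth in bone and in brain. All 3 lines were grown in RPMI-1640 with 10% serum, and in each of them magnetic beads kept the CD24-/CD44+/ESA+ cells, so the controls carried the same sort as the derivatives. The study asked how the sorted cells of each derivative differ from those of the parental line, with 2 arrays per line. The replicates are called biological, but no label ties them to separate cultures, so each p-value rests on array-to-array spread alone, which may be technical. Each derivative is 1 selected population, so a difference between lines is a difference between these populations.

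The cytokines of this family share gp130, the signalling chain encoded by IL6ST. IL6 and IL11 first bind their own receptor chains, IL6R and IL11RA, which then bring in gp130, whereas LIF uses a pair of gp130 and LIFR, and oncostatin M a pair of gp130 and OSMR or LIFR. The receptor-bound Janus kinases then phosphorylate STAT3, which enters the nucleus and switches on its own inhibitor, SOCS3. In breast cancer the family is known for IL11 in bone metastasis, where it drives bone resorption, and for IL6 in the maintenance of stem-like tumour cells.

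The deposited values are log2 expression values on 1 scale across arrays, and a difference of 1 is 2-fold. The median per array was 6.58 to 6.64, and replicates correlated at r = 0.9935 to 0.9959 across named clusters, which are not independent replicates. VIM and EGFR stood at 12.30 or above and at 10.55 or above on every array, while the hormone receptor genes ESR1 and PGR stood at 5.24 or below. They belong to a list of 8 markers of the line and the sort. Of these 8, ERBB2 was higher (0.45) and VIM lower (-0.37) in 231BrM-2a than in MDA-MB-231 (25% beside 19% of all clusters). Both calls were lost with all clusters tested (adjusted p = 0.0634 and 0.0652). Between the derivatives, 1 was higher and 2 lower in 231BrM-2a, CD44 among the lower (37.5% beside 23.5%). In 231BoM-1833 against MDA-MB-231, 0 were called. Leukocyte markers averaged 5.81 to 6.11 over 8 genes, with PTPRC, which defines leukocytes, at 3.60 to 3.86. CD14 of that list was called higher in 231BoM-1833 and lower in 231BrM-2a than in MDA-MB-231 (12.5% of the list in each, beside 15.8% and 19% of all clusters). Of 5 endothelial markers, 1 was higher in 231BoM-1833 and 2 were lower in 231BrM-2a than in MDA-MB-231 (20% and 40%, beside the same shares). The higher one was KDR, a call lost with all clusters tested (adjusted p = 0.0972). The lower ones were KDR and PECAM1 (-0.38). The PECAM1 call was lost with all clusters tested (0.0857) and with its clusters averaged (-0.18, adjusted p = 0.259). It was also lost without any 1 of the 4 arrays compared (-0.46 to -0.30). Of 7 fibroblast markers, 4 were higher in 231BrM-2a than in MDA-MB-231 (PDGFRB, DCN, COL1A1 and LUM) and 0 lower, 57.1% beside 19% of all clusters. The average over the 7 was 6.36 to 6.47 in 231BrM-2a against 5.91 to 5.95 in MDA-MB-231. The LUM call was lost when clusters with no gene name were tested too (adjusted p = 0.0938). It was also lost with quantile normalization added (0.0534) and with a replicate block (0.0747). Without any 1 of the 4 arrays compared it was lost as well (differences of 0.29 to 0.44). The COL1A1 call was lost without replicate 2 of MDA-MB-231 or of 231BrM-2a (differences of 0.58 and 0.46). COL1A2 and COL3A1 of that list were not called (adjusted p = 0.311 and 0.36 in 231BrM-2a against MDA-MB-231). In sorted populations, more cells of a kind and more RNA per cell cannot be told apart, and the part of such markers in the differences below was not tested. A test called a difference at an adjusted p under 0.05 (limma, Benjamini-Hochberg over 21214 named clusters).

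Most called differences of the axis were in the brain-selected cells. Of the 10 genes, IL6, IL6R, IL11RA and OSMR were higher in 231BrM-2a than in MDA-MB-231 and LIF was lower, that is 4 and 1 called where 19% of all clusters were called (10.5% higher, 8.59% lower). In 231BoM-1833 against MDA-MB-231, LIF alone was called, higher, where 15.8% of all clusters were called (8.43% higher, 7.38% lower), so that share was not above the background. Between the derivatives, the same 4 genes were higher and LIF and IL11 lower in 231BrM-2a, 6 of 10 where 23.5% of all clusters were called (12.5% higher, 11% lower). The median difference over the 10 genes was 0.20 in 231BrM-2a and 0.05 in 231BoM-1833 against MDA-MB-231, beside -0.05 over all clusters in both. The comparisons share arrays and are not independent of each other. Of the 5 calls of 231BrM-2a against MDA-MB-231, that of IL6 alone was kept without replicate 1 of MDA-MB-231, where IL11 was called as well. Of these 5, 2 were kept without replicate 2 of MDA-MB-231 or of 231BrM-2a, 3 without replicate 1 of 231BrM-2a, and 2 when clusters with no gene name were tested too. The 6 between the derivatives were 2 without replicate 2 of 231BrM-2a and 3 without replicate 2 of 231BoM-1833.

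**Figure D1:**
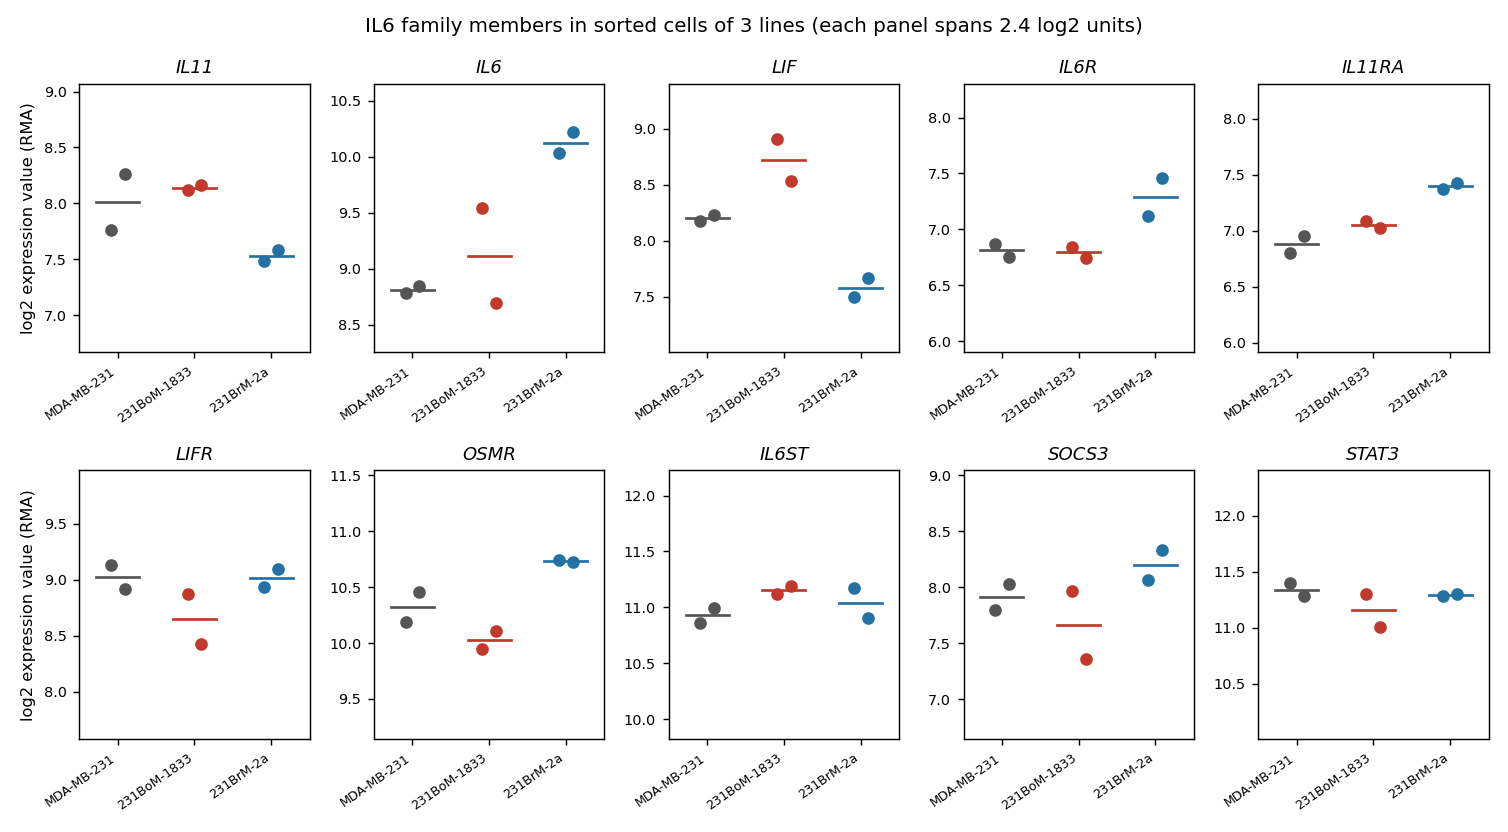
Log2 expression value of each gene on the 6 arrays, grouped by line, with a bar at the mean of the 2 arrays of a line; every panel spans the same number of log2 units around its own centre. IL6 lies highest on both arrays of 231BrM-2a and LIF lowest, while the arrays of IL6ST and STAT3 lie close together in all lines.

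IL6, the ligand that gives the family its name, showed the largest difference of the 10 genes. Its log2 values were 8.79 and 8.84 in MDA-MB-231, 9.55 and 8.69 in 231BoM-1833, and 10.04 and 10.22 in 231BrM-2a. Both arrays of the brain-selected cells lay above all others, while the arrays of the bone-selected cells lay on either side of the parental ones. IL6 was 2.49-fold higher in 231BrM-2a than in MDA-MB-231 (log2 difference 1.31 ± 0.23 SE, adjusted p = 0.0042). It was 2.01-fold higher in 231BrM-2a than in 231BoM-1833 (1.01 ± 0.23, adjusted p = 0.0114), a call lost without replicate 2 of 231BrM-2a (adjusted p = 0.0765). That difference was 0.58 without replicate 2 of 231BoM-1833 and 1.44 without replicate 1, and called in both. In 231BoM-1833 against MDA-MB-231 the difference was 0.30 ± 0.23 (adjusted p = 0.394). That value rested on 1 array: it was 0.73 (adjusted p = 0.0121) without replicate 2 of 231BoM-1833 and -0.12 without replicate 1.

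IL11, the ligand known for bone resorption in metastasis, was lower in the brain-selected than in the bone-selected cells. Its log2 values were 7.76 and 8.26 in MDA-MB-231, 8.12 and 8.16 in 231BoM-1833, and 7.48 and 7.59 in 231BrM-2a. The brain-selected cells were lowest on both arrays, and the bone-selected values fell inside the parental range. IL11 was 1.52-fold lower in 231BrM-2a than in 231BoM-1833 (-0.61 ± 0.16, adjusted p = 0.021). The call was lost without any 1 of the 4 arrays compared (adjusted p = 0.0518 to 0.116) and with all clusters tested (0.0651). Against MDA-MB-231 the difference was -0.48 ± 0.16 in 231BrM-2a (adjusted p = 0.0634), and it was called without replicate 1 of MDA-MB-231 (-0.73, adjusted p = 0.0156), and at 0.0481 to 0.0486 in 3 other settings. Without replicate 2 of MDA-MB-231 it was -0.23 (adjusted p = 0.369). In the bone-selected cells it was 0.13 ± 0.16, with a 95% interval of -0.22 to 0.48.

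LIF, which keeps stem cells undifferentiated in culture and binds LIFR with gp130, was the member that differed in both derivatives, in opposite directions. Its log2 values were 8.18 and 8.23 in MDA-MB-231, 8.91 and 8.53 in 231BoM-1833, and 7.50 and 7.67 in 231BrM-2a. The 3 lines did not overlap, in the order bone-selected, parental, brain-selected. LIF was 2.20-fold lower in 231BrM-2a than in 231BoM-1833 (-1.14 ± 0.14, adjusted p = 0.000432), a call kept in all 13 alternatives. Against MDA-MB-231 it was 1.54-fold lower in 231BrM-2a (-0.62 ± 0.14, adjusted p = 0.0138), a call lost in 4 of 13 alternatives, without either array of MDA-MB-231 among them (0.0631 and 0.0926). It was 1.43-fold higher in 231BoM-1833 (0.52 ± 0.14, adjusted p = 0.0357), a call lost in 8 of 12 alternatives (adjusted p up to 0.144). Without replicate 1 of 231BoM-1833 that difference was 0.33. In such counts of alternatives, leaving out either array of the line not compared repeats the fit on only the 4 arrays compared.

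The upstream sequences of IL6 and IL11 are shown because IL6 was higher and IL11 lower in 231BrM-2a than in 231BoM-1833 and because their promoters hold different motifs. Each is the 250 bases before the gene's first annotated start in RefSeq (GRCh38.p14), read 5′ to 3′ on the gene's strand, IL6 at chr7:22726950-22727199 (+ strand) and IL11 at chr19:55370464-55370713 (- strand). Capitals mark matches, on either strand, to GGG and CC spaced by any 5 bases, a loose form of the NF-kappaB site, in IL6, and to TGANTCA, the AP-1 site, in IL11.
IL6: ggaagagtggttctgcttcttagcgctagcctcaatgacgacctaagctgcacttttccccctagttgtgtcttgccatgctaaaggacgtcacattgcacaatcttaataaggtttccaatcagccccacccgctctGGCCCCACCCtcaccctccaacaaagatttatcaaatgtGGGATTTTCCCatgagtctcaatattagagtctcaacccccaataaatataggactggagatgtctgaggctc
IL11: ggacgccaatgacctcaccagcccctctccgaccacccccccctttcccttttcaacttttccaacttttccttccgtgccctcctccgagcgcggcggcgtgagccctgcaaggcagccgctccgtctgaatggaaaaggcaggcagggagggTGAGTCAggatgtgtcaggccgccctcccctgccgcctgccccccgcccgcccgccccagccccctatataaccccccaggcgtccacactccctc
IL6 held 3 matches to the NF-kappaB pattern, starting 112, 73 and 72 bases before the start, with the last pair overlapping on opposite strands (GGGATTTTCC and GGATTTTCCC). IL11 held the AP-1 pattern TGAGTCA 96 bases before its start, and no match to the other patterns.

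Over the 9 members with an upstream sequence in the table, which does not list LIF, the AP-1 pattern was found in IL11 alone, and the STAT pattern TTCNNNGAA in LIFR alone, in 2 of its 3 start regions. Those patterns occurred in 6.57% each of all 35116 regions of that length. The NF-kappaB pattern was found in 8 of the 9 members, all but IL11, but it is loose and occurred in 54.4% of all regions. Matches of different patterns did not overlap. These matches are letters in a window and show no binding.

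The receptor chains that bind IL6 and IL11 were both higher in the brain-selected cells. IL6R stood at 6.87 and 6.76 in MDA-MB-231, 6.84 and 6.74 in 231BoM-1833, and 7.12 and 7.46 in 231BrM-2a. The parental and bone-selected values lay in the same range and the brain-selected ones above it. IL6R was 1.39-fold higher in 231BrM-2a than in MDA-MB-231 (0.48 ± 0.13, adjusted p = 0.0358) and 1.41-fold higher than in 231BoM-1833 (0.50 ± 0.13, adjusted p = 0.025). Without replicate 2 of 231BrM-2a these differences were 0.30 and 0.32 and neither was called (adjusted p = 0.245 and 0.19). The first was also lost without either array of MDA-MB-231 (0.0915 and 0.195), the second without replicate 2 of 231BoM-1833 (0.0965), and both with all clusters tested (0.0944 and 0.0686).

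IL11RA stood at 6.80 and 6.96 in MDA-MB-231, 7.08 and 7.03 in 231BoM-1833, and 7.37 and 7.42 in 231BrM-2a. The lines did not overlap, with the brain-selected cells highest and the parental cells lowest. The receptor gene was 1.43-fold higher in 231BrM-2a than in MDA-MB-231 (0.52 ± 0.11, adjusted p = 0.00942), although its ligand gene IL11 was not higher there. That call was lost without replicate 1 of MDA-MB-231 (0.0725) or replicate 2 of 231BrM-2a (0.0727). Its difference between the derivatives, 0.34 ± 0.11, was called at an adjusted p of 0.0448 and lost in 11 of 13 alternatives (up to 0.197). The parental and bone-selected cells differed by 0.17 ± 0.11 (adjusted p = 0.296).

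OSMR, the chain that pairs with gp130 to bind oncostatin M, had the largest difference between the derivatives among the 5 receptor chains of the 10 genes. Its values were 10.19 and 10.45 in MDA-MB-231, 9.94 and 10.11 in 231BoM-1833, and 10.74 and 10.72 in 231BrM-2a. Both arrays of the brain-selected cells lay above all others, and the bone-selected ones below the parental ones. OSMR was 1.63-fold higher in 231BrM-2a than in 231BoM-1833 (0.71 ± 0.12, adjusted p = 0.00307), and this call held in all 13 alternatives. Against MDA-MB-231 it was 1.33-fold higher (0.41 ± 0.12, adjusted p = 0.0457), a call lost in 7 of 13 alternatives, without any 1 of the 4 arrays compared among them (0.0544 to 0.237). Without replicate 1 of MDA-MB-231 that difference was 0.28. In 231BoM-1833 against MDA-MB-231 it was -0.30 ± 0.12 (adjusted p = 0.133).

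LIFR, which lies with OSMR on chromosome 5 and whose product binds LIF, had no called difference. Its values were 9.13 and 8.92 in MDA-MB-231, 8.87 and 8.42 in 231BoM-1833, and 8.94 and 9.09 in 231BrM-2a. The brain-selected values lay within the parental range. Both arrays of 231BoM-1833 lay below all arrays of the other lines, but the higher of them (8.87) lay only just below the lowest parental value (8.92). The adjusted p was 0.131, 0.971 and 0.13 in the 3 comparisons. Without replicate 1 of 231BoM-1833, LIFR was called lower in 231BoM-1833 than in MDA-MB-231 (-0.60, adjusted p = 0.0296) and than in 231BrM-2a (difference 0.59, adjusted p = 0.0197). Without replicate 2 these values were -0.16 and 0.15 (adjusted p = 0.505 and 0.561), and with a crossed replicate block the second was called at 0.0457.

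IL6ST, the shared gp130 chain, stood at 10.86 and 10.99 in MDA-MB-231, 11.12 and 11.19 in 231BoM-1833, and 11.17 and 10.91 in 231BrM-2a. The spread between the 2 arrays of 231BrM-2a covered nearly the whole range of the 3 lines. No difference was called, and the 95% intervals ran from -0.05 to 0.50 in 231BoM-1833 and from -0.16 to 0.38 in 231BrM-2a against MDA-MB-231.

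STAT3, the factor that carries the signal to the nucleus, stood at 11.40 and 11.28 in MDA-MB-231, 11.30 and 11.01 in 231BoM-1833, and 11.28 and 11.30 in 231BrM-2a. All 3 lines overlapped, and the 95% interval was -0.46 to 0.09 in 231BoM-1833 and -0.33 to 0.23 in 231BrM-2a against MDA-MB-231. The transcript level does not show the phosphorylated, active form of the protein.

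SOCS3, the inhibitor that STAT3 induces and that binds gp130, stood at 7.79 and 8.03 in MDA-MB-231, 7.97 and 7.35 in 231BoM-1833, and 8.07 and 8.33 in 231BrM-2a. The brain-selected values were the highest, but the nearest parental array lay only just below them. The difference between 231BrM-2a and 231BoM-1833 was 0.54 ± 0.19 (adjusted p = 0.0771), with a 95% interval of 0.10 to 0.98. It was called without replicate 1 of 231BoM-1833 (0.85, adjusted p = 0.00715), and was 0.23 without replicate 2 (adjusted p = 0.384). Against MDA-MB-231 the differences were 0.29 ± 0.19 in 231BrM-2a and -0.25 ± 0.19 in 231BoM-1833 (adjusted p = 0.337 and 0.409).

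**Figure D2:**
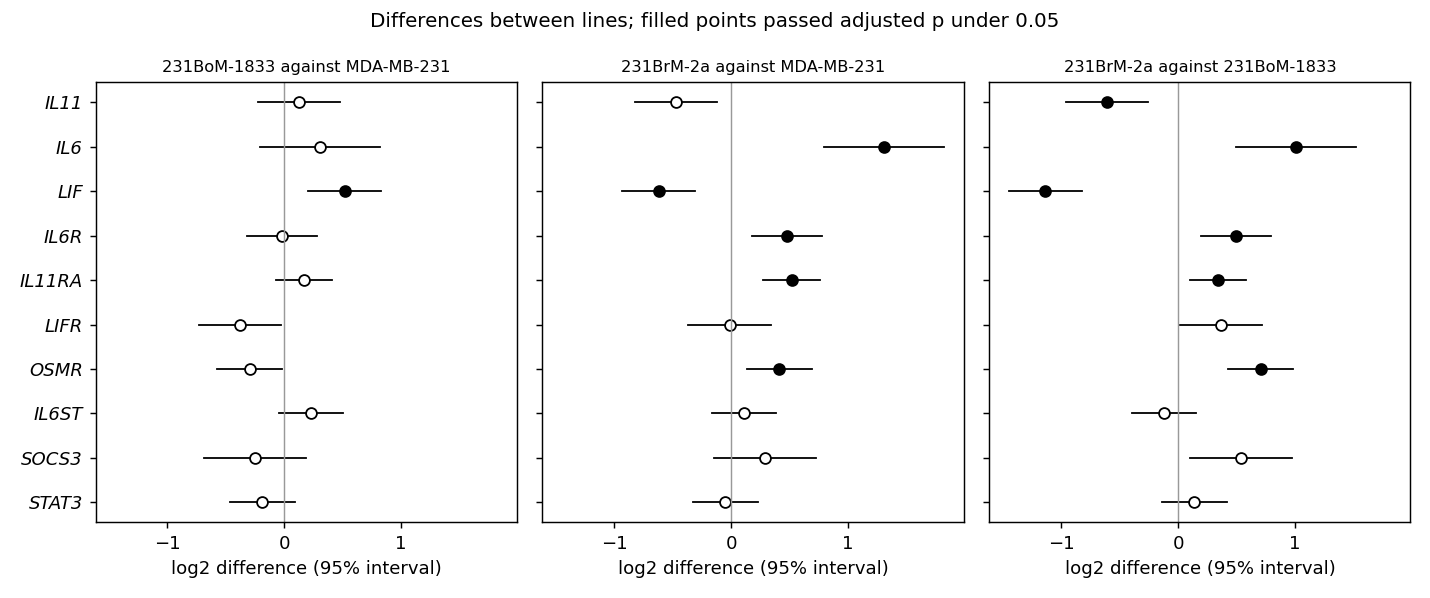
Log2 difference of each gene between lines, 1 panel per comparison, with the 95% interval of the fit as a line; filled points passed an adjusted p under 0.05 and open points did not. IL6, IL6R, IL11RA and OSMR lie to the right and LIF to the left in both panels of 231BrM-2a, and LIF alone is filled in 231BoM-1833 against MDA-MB-231.

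Other genes of the axis were grouped in 6 lists. None of the other measured ligands, OSM, CTF1, IL27, EBI3 and IL31, was called in any comparison as designed. Of these 5, EBI3, a subunit of IL27, had the largest difference in 231BoM-1833 against MDA-MB-231 (0.45, adjusted p = 0.0577), IL31 in 231BrM-2a (0.27, adjusted p = 0.231) and OSM between the derivatives (0.28, adjusted p = 0.215). With no adjustment for multiple tests, limma put 1 of the 15 values below 0.05, EBI3 in the first comparison.

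Among 7 other receptor chains and shedding genes, 1 was higher and 1 lower in 231BrM-2a than in MDA-MB-231 (28.6% beside 19% of all clusters). In 231BoM-1833, 1 was higher (14.3% beside 15.8%), a share not above the background. Between the derivatives, 1 was higher and 2 lower in 231BrM-2a (42.9% beside 23.5%). The protease gene ADAM10, whose product can release IL6R from the cell surface, stood at 11.01 and 10.98 in MDA-MB-231 and at 12.11 and 12.22 in 231BrM-2a. It was 2.25-fold higher (adjusted p = 0.000127), and 2.03-fold higher than in 231BoM-1833 (adjusted p = 0.000166). ADAM17, the main protease of regulated IL6R release, did not pass (0.08, adjusted p = 0.685). IL31RA, which pairs with OSMR to bind IL31, stood at 8.32 and 8.27 in MDA-MB-231, 8.73 and 8.99 in 231BoM-1833, and 7.54 and 7.35 in 231BrM-2a. It thus had the same order of lines as LIF, and was lower in 231BrM-2a (-0.86, adjusted p = 0.00187) and higher in 231BoM-1833 (0.56, adjusted p = 0.0183) than in MDA-MB-231. The higher call was lost in 4 settings, without either MDA-MB-231 array among them (0.0766 and 0.113), and the derivatives differed by -1.42 (adjusted p = 7e-05). IL27RA, the IL27 receptor chain, was lower in 231BrM-2a than in 231BoM-1833 (-0.53, adjusted p = 0.00948). That call was lost without replicate 1 of 231BrM-2a (-0.43).

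Of 12 measured Janus kinases, STATs and adaptors, none was called in 231BoM-1833 against MDA-MB-231 (STAT5A had the largest difference, -0.33, adjusted p = 0.087; JAK1, STAT5A and SHC1 had an unadjusted p under 0.05). In 231BrM-2a, 2 were higher and 2 lower than in MDA-MB-231, 33.3% beside 19% of all clusters. STAT4, a STAT usually found in lymphocytes, stood at 5.37 and 5.43 in MDA-MB-231, 5.38 and 5.81 in 231BoM-1833, and 6.93 and 7.06 in 231BrM-2a. It was 3.02-fold higher in 231BrM-2a than in MDA-MB-231 (adjusted p = 0.000137). The adaptor gene SHC1 was 1.31-fold higher (adjusted p = 0.0401), a call lost without any 1 of the 4 arrays compared (0.128 to 0.18). PTPN11, which encodes the phosphatase SHP2 that docks on gp130 at the same tyrosine as SOCS3, was 1.60-fold lower (11.76 and 11.90 against 11.23 and 11.07, adjusted p = 0.0037). GAB1, the scaffold that works with SHP2, was 1.34-fold lower (adjusted p = 0.0172), a call lost in the same way (0.0764 to 0.0978). Between the derivatives STAT4 and STAT5B were higher and PTPN11 and GAB1 lower in 231BrM-2a (1.40, 0.34, -0.59 and -0.41), 33.3% beside 23.5% of all clusters. The STAT5B call was lost in 9 settings, without any 1 array among them (0.0632 to 0.185). The GAB1 call was lost without either array of 231BrM-2a (0.0812 and 0.0852) and with its clusters averaged (0.0695), and the PTPN11 call without replicate 2 of 231BrM-2a (0.0543). The kinase genes JAK1, JAK2 and TYK2 were not called in any comparison. The 4 calls of 231BrM-2a against MDA-MB-231 were 2 without any 1 of the 4 arrays compared, and the 4 between the derivatives were 1 without replicate 2 of 231BrM-2a and 2 without replicate 1.

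Of 14 negative regulators other than SOCS3, the PIAS genes, whose products restrain STATs in the nucleus, supplied most of the calls against MDA-MB-231. PIAS3, the inhibitor known for binding STAT3, was lower in both derivatives, at 9.58 and 9.49 in MDA-MB-231, 8.77 and 9.15 in 231BoM-1833, and 9.06 and 9.04 in 231BrM-2a. Its differences were -0.57 (adjusted p = 0.0228) and -0.48 (adjusted p = 0.0368). The calls came to 14.3% of the list in 231BoM-1833 and 21.4% in 231BrM-2a, beside 15.8% and 19% of all clusters. SOCS2 was also lower in 231BoM-1833 (-0.55, adjusted p = 0.0257). In 231BrM-2a, PIAS1 was higher (0.71, adjusted p = 0.00756) and PIAS2 lower (-0.53, adjusted p = 0.00668). Between the derivatives, 2 were higher and 4 lower in 231BrM-2a (42.9% beside 23.5% of all clusters), with PIAS2 (-0.66), SOCS6 (-0.64), the phosphatase gene PTPN1 (0.57) and PIAS1 (0.49) the largest. Single arrays decided many of these calls: the count was 0 in 231BoM-1833 without either array of MDA-MB-231, and 0 in 231BrM-2a without replicate 2 of MDA-MB-231 or of 231BrM-2a. Between the derivatives it was 2 without replicate 2 of 231BrM-2a.

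Genes known to respond to gp130 and STAT3 moved in both directions. Of 20, 5 were higher and 3 lower in 231BrM-2a than in MDA-MB-231 (40% beside 19% of all clusters), with a median difference of 0.04. MUC1, a membrane mucin, stood at 6.22 and 6.38 in MDA-MB-231 and 7.76 and 7.68 in 231BrM-2a (2.68-fold higher, adjusted p = 0.000122). The transcription factor genes IRF1 (0.72, adjusted p = 0.00208) and FOS (0.86, adjusted p = 0.0413) were higher, FOS not without replicate 2 of 231BrM-2a (0.51, adjusted p = 0.257) or replicate 1 of MDA-MB-231 (0.63, 0.215). VEGFA, which encodes an angiogenic factor, was 2.41-fold lower (adjusted p = 0.00126), at 9.81 and 10.10 against 8.94 and 8.42. In 231BoM-1833, 1 of 20 was higher, the protease inhibitor gene TIMP1 (0.51, adjusted p = 0.0189, and 0.0523 to 0.127 in 4 settings, without either array of MDA-MB-231 or replicate 1 of 231BoM-1833 among them), and 2 were lower, the acute-phase gene SERPINA3 (-1.04, adjusted p = 0.00159) and the survival gene BCL2L1 (-0.55, adjusted p = 0.011). The calls in 231BoM-1833 came to 15% of the list beside 15.8% of all clusters, so that share was not above the background. SERPINA3 and CEBPD, an acute-phase transcription factor gene, were higher in 231BrM-2a than in 231BoM-1833 (0.80 and 0.79). Between the derivatives, 7 of 20 were higher and 4 lower in all (55% beside 23.5% of all clusters). The count against MDA-MB-231 was 4 in 231BrM-2a without either array of MDA-MB-231 and 1 in 231BoM-1833 without replicate 2 of MDA-MB-231, and between the derivatives it was 4 without replicate 1 of 231BrM-2a.

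**Figure D3:**
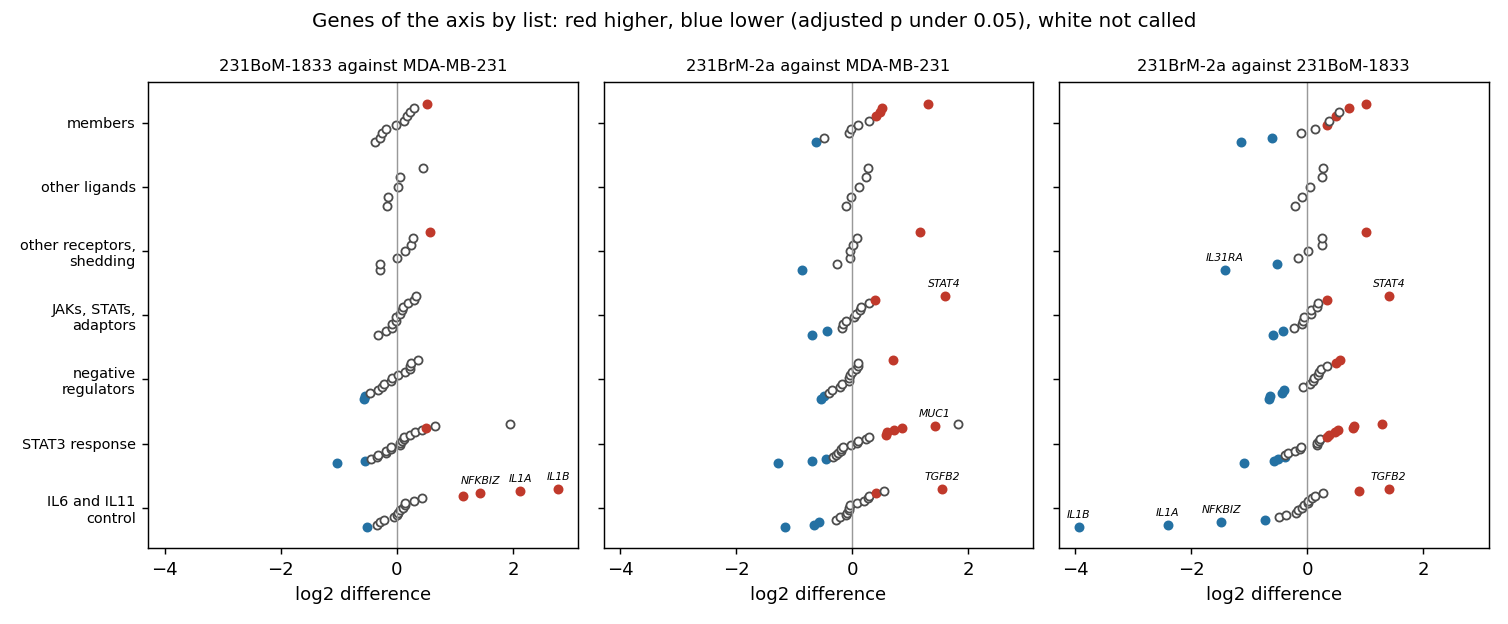
Log2 difference of each measured gene of the axis, 1 point per gene, by list and comparison; red points were higher and blue points lower at an adjusted p under 0.05, and white points were not called. Called points of the lists lie on both sides of 0 in 231BrM-2a, and in 231BoM-1833 the widest called differences are those of IL1B, IL1A and NFKBIZ.

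Of 17 genes known to control IL6 and IL11 transcripts, IL1B, IL1A, NFKBIZ and TGFB2 had the widest called differences between the derivatives. The interleukin-1 genes, whose products induce IL6 and LIF through NF-kappaB in many cells, were high in 231BoM-1833. IL6 was not called there against MDA-MB-231, and the part of interleukin-1 in the values of IL6 and LIF was not tested. IL1B stood at 9.42 and 9.07 in MDA-MB-231, 11.78 and 12.28 in 231BoM-1833, and 7.84 and 8.33 in 231BrM-2a. The bone-selected cells lay far above and the brain-selected cells below the parental ones, the same order of lines as for LIF and the reverse of that for IL6 in the brain-selected cells. IL1B was 15.4-fold lower in 231BrM-2a than in 231BoM-1833 (adjusted p = 3.42e-06). IL1A was 5.31-fold lower there (adjusted p = 2.09e-05). NFKBIZ, whose product helps NF-kappaB switch on IL6, was 2.71-fold higher in 231BoM-1833 than in MDA-MB-231 (adjusted p = 0.000293) and differed by -0.04 in 231BrM-2a (adjusted p = 0.846).

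TGF-beta is a known inducer of IL11 in these cells. TGFB2 stood at 10.51 and 10.41 in MDA-MB-231, 10.85 and 10.36 in 231BoM-1833, and 12.00 and 12.01 in 231BrM-2a. It was 2.92-fold higher in 231BrM-2a than in MDA-MB-231 (adjusted p = 0.000224). IL11 was lowest in 231BrM-2a, but was not called there against MDA-MB-231 (adjusted p = 0.0634). The part of TGF-beta in the IL11 values was not tested. TGFB1 was lower in both derivatives (-0.51 and -0.56, adjusted p = 0.0165 and 0.00784). The first call was lost without either array of MDA-MB-231 or replicate 2 of 231BoM-1833 (0.0518 to 0.0986), the second without replicate 1 of MDA-MB-231 or of 231BrM-2a (0.0628 and 0.0699). FOSL1, an AP-1 subunit, was lower in 231BrM-2a (-0.65, adjusted p = 0.0083), a call lost without replicate 2 of MDA-MB-231 or of 231BrM-2a (0.0634 and 0.0732). JUN, another, was higher in both, by 1.14 in 231BoM-1833 (adjusted p = 0.000388) and 0.41 in 231BrM-2a (adjusted p = 0.0308, and 0.0513 to 0.213 without any 1 of the 4 arrays compared). Of the 17 genes of this list, 4 were higher and 1 lower in 231BoM-1833 and 2 higher and 3 lower in 231BrM-2a against MDA-MB-231 (29.4% in each, beside 15.8% and 19% of all clusters), and 2 higher and 4 lower between the derivatives (35.3% beside 23.5%). Without any 1 of the 4 arrays compared, the count in 231BrM-2a against MDA-MB-231 was 3.

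Immediate early genes, which also answer to cell handling during a sort, differed between the lines in the same samples. FOS and JUNB of this list are also in the STAT3 response list, and JUN and ZFP36 in the list of IL6 and IL11 control. The shares of these lists are thus not independent. Of 11 measured, 4 were higher and 0 lower in 231BoM-1833 than in MDA-MB-231: JUN, IER3 (1.12), ATF3 (0.98) and IER2 (0.87), 36.4% beside 15.8% of all clusters. The count was 7 with the replicate block, which added FOS, FOSB and EGR1, and as low as 3 in other settings. The ATF3 call was lost with all clusters tested (adjusted p = 0.0764) and without either array of MDA-MB-231 (differences of 1.06 and 0.90). Between the derivatives 0 were higher and 5 lower in 231BrM-2a (45.5% beside 23.5% of all clusters), IER3 (-2.02), IER2 (-1.28), EGR1 (-0.76) and JUN (-0.73) with the widest differences; EGR1 was -0.44 without replicate 2 of 231BoM-1833 (adjusted p = 0.116), and the count was 3 without replicate 1 of 231BrM-2a. Against MDA-MB-231, 3 were higher and 2 lower in 231BrM-2a (45.5% beside 19%), among them ATF3 (1.08), IER3 (-0.90), FOS and JUN, a count of 1 without either array of MDA-MB-231 or replicate 2 of 231BrM-2a. Averaged over the 11 genes, the level was highest in 231BoM-1833 (10.70 and 10.73 on its arrays), above 231BrM-2a (10.13 and 10.33) and MDA-MB-231 (10.03 and 10.19). LIF and IL6 can belong to the same response, and the part of handling in their differences was not tested.

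**Figure D4:**
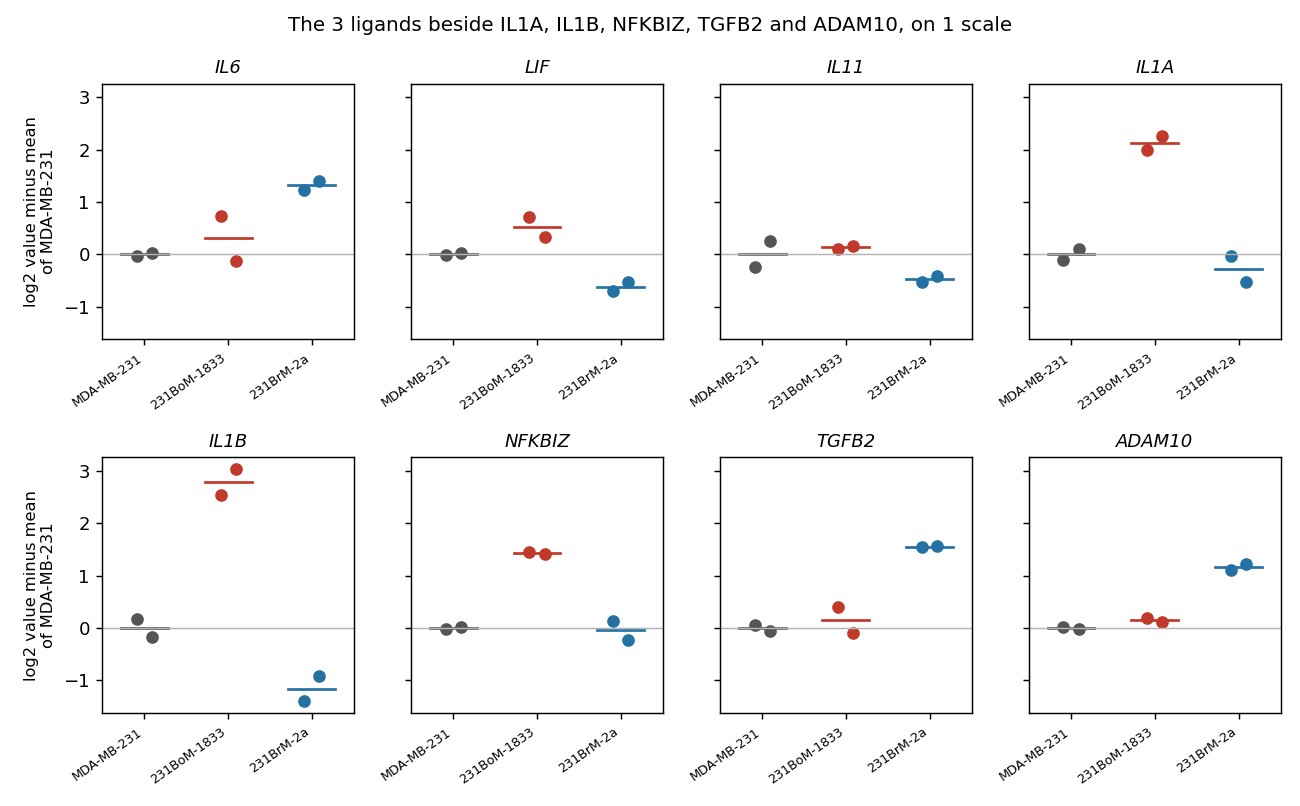
Log2 value on each array minus the mean of MDA-MB-231, for the 3 ligands and 5 genes that act on them or on their receptors, with a bar at the mean of the 2 arrays of a line. All panels share 1 axis: IL6, TGFB2 and ADAM10 lie highest in 231BrM-2a, and LIF, IL1A, IL1B and NFKBIZ in 231BoM-1833.

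For the 3 members with the widest range over the arrays, the genes with the most similar profiles were found by the root mean square difference of centred log2 values over the 6 arrays, as a description. For IL6 these were SCML1 (0.121), ERI1 (0.123) and ZNF702P (0.138). For LIF they were WDR44 (0.0315), BCL10 (0.0718) and TSPAN5 (0.0757). BCL10, which encodes an adaptor of NF-kappaB signalling in lymphocytes, stood at 9.21 and 9.20 in MDA-MB-231, 9.74 and 9.39 in 231BoM-1833, and 8.50 and 8.61 in 231BrM-2a. For SOCS3 they were RTN4IP1 (0.0357), THOC7 (0.0644) and MMD (0.0727). With 3 lines, many genes can share such a profile. Each of these genes, like the 3 members, was lower on replicate 2 than on replicate 1 of 231BoM-1833 (RTN4IP1 at 6.94 and 7.57). The likeness thus takes in a split between arrays of 1 line as well as differences between lines.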

How the data were processed

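RNA of 6 samples, 2 per line and 100 ng each, was hybridised to Affymetrix whole-transcript arrays. The deposited values are on the log2 scale, and the submitters' processing notes name RMA and Affymetrix Expression Console. RMA brings all arrays to 1 distribution, so differences are relative to the other genes. Of 33297 clusters, 21214 had a gene symbol (19460 had 1 symbol, 1754 several) and 12083 were unnamed here. Symbols came from the platform annotation, and 19429 clusters matched RefSeq by gene ID.

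A mean per line was fitted to all 6 arrays with limma 3.58.1 (lmFit, eBayes; R 4.3.3), with 3 residual degrees of freedom, and two-sided p-values were adjusted over named clusters by Benjamini-Hochberg at 0.05. The script was tested on simulated data. The number of arrays limits the precision. The genes and lists were chosen with earlier results of these data known. From each list, up to 4 called genes with the largest difference per comparison were named, or 1 where none was called; ADAM17, EGFR and the kinase genes were named after their values were seen. Of 119 list genes, 110 had a cluster of their own. Upstream sequences came from RefSeq; protein sequences were not used here. Alternatives changed the clusters tested, normalization, variance model, arrays and replicate block. Leaving out either array of the line not compared gave the same values as using only the 4 arrays compared. These settings were counted separately, so the alternatives are not all distinct. Same-numbered arrays deviated from their line means with r = 0.0362, -0.162 and -0.165, so the numbers were not taken to pair samples.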

Additional observations from a re-analysis of the deposited data

Results flagged for a closer look

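Genes were set aside here because the difference between the 2 derivatives, which tests whether their changes from MDA-MB-231 differ, was called. Among the 10 genes of the axis, 231BrM-2a minus 231BoM-1833 was -0.61 for IL11, 1.01 for IL6, -1.14 for LIF, 0.50 for IL6R, 0.34 for IL11RA and 0.71 for OSMR on the log2 scale, with the tests given above.

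Other genes were listed because each was also called in opposite directions in the derivatives against MDA-MB-231. The difference between the derivatives was -1.42 for IL31RA, -3.94 for IL1B, -1.28 for IER2 and -2.02 for IER3. Among markers of other cell types, it was -1.39 for CD14, a monocyte marker, with 7.67 and 7.56 in MDA-MB-231, 8.39 and 8.60 in 231BoM-1833, and 7.02 and 7.20 in 231BrM-2a. It was 1.77 for DCN, a matrix proteoglycan gene of fibroblasts, with 6.11 and 5.80, 5.30 and 5.04, and 6.77 and 7.10 in the same order of lines. It was -1.57 for KDR, a VEGF receptor gene of endothelium, with 8.04 and 7.95, 8.31 and 8.56, and 6.77 and 6.95. Against MDA-MB-231, the KDR call in 231BoM-1833 (0.44) was lost in 8 settings (adjusted p = 0.0558 to 0.213), the DCN call in 231BoM-1833 without replicate 1 of MDA-MB-231 or replicate 2 of 231BoM-1833 (0.0838 and 0.0533), and the CD14 call in 231BrM-2a in 4 settings (0.0591 to 0.133). Their part in the differences of the axis was not tested. With 2 arrays per line, single arrays could not be checked as outliers.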

How the results depend on the processing

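Over 12 other settings, and a crossed replicate block chosen after seeing the data for the comparisons of 231BrM-2a, no called value of the 10 genes or the lists changed direction. Of the values of the 10 genes, called or not, 8 of 120 lost a call and 2 gained one in 231BoM-1833, 18 and 4 of 130 in 231BrM-2a against MDA-MB-231, and 20 and 3 of 130 between the derivatives. Only genes called as designed, 1, 5 and 6 in the 3 comparisons, could lose a call, so these shares understate how often calls were lost. In 231BoM-1833 all 8 losses were among the 12 settings of LIF. With unnamed clusters tested too, 2220 clusters were called in 231BoM-1833 against MDA-MB-231 (3354 as designed, 1630 shared), and 0, 2 and 3 of the 10 genes were called in the 3 comparisons, where 1, 5 and 6 were as designed. In 231BoM-1833 against MDA-MB-231, 0 of the 10 were called with only the 4 arrays of both lines, and 0 with the replicate block. Leaving out 1 array gave 932 to 2936 clusters and 0 to 2 of the 10 genes in that comparison, 1764 to 4751 (4040 as designed) and 2 to 5 in 231BrM-2a, and 3001 to 4750 (4976 as designed) and 2 to 6 between the derivatives; the lone array left in a line is then assumed to vary like the others. The replicate block gave 2724, 3535 and 4564 clusters and 0, 4 and 5 of the 10 genes; the crossed block gave 4468 and 5387 clusters and 5 and 7 genes. The cause of these shifts was not tested. Among list counts that moved by over 1.5 times in some settings were those of the negative regulators (0 to 4 in 231BrM-2a against MDA-MB-231, 3 as designed), the STAT3 response genes (4 to 9, 8 as designed) and the immediate early genes (1 to 5, 5 as designed). Array signal over background was not given, so low values such as STAT4 (under 6 in MDA-MB-231) have an unknown floor.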

Other observations

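LCN2, the iron-binding lipocalin gene of the STAT3 response list, had wide differences that were called in some settings only, and was picked out after its values were seen. It stood at 7.57 and 7.11 in MDA-MB-231, 8.54 and 10.04 in 231BoM-1833, and 10.13 and 8.19 in 231BrM-2a. Both derivatives lay above the parental cells on every array, but their own arrays differed by more than 1 log2 unit. The log2 differences from MDA-MB-231 were 1.96 in 231BoM-1833 and 1.82 in 231BrM-2a (limma, Benjamini-Hochberg adjusted p = 0.0547 and 0.0625). The first was called in 5 of 12 other settings (0.0202 to 0.0461; 2.70 without replicate 1 of 231BoM-1833). The second was called in 5 of 13 (0.0124 to 0.0337; 2.79 without replicate 2 of 231BrM-2a).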
